A study of Homo sapiens with 8 samples.

Results

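Replication-dependent histone genes were examined on 78 probe sets of an Affymetrix human gene array that holds 33297. A probe set was taken when every gene symbol paired with it named a histone of the replication clusters, that is H1-1 to H1-6 or a numbered H2AC, H2BC, H3C or H4C gene, or carried an older name beginning HIST1, HIST2 or HIST3. Of the 78, 59 were paired with 1 gene and 19 with several near-identical or adjacent genes, and together they covered 74 gene symbols. By family, 6 measured linker histone H1, 16 H2A, 22 H2B, 14 H3 and 17 H4, and 3 spanned H2A together with H2B or H3. In 4 pairs both probe sets held identical values on every array, which left 74 distinct profiles, and 5 probe sets had a pseudogene among their genes. One further probe set was left out because its annotation adds FCGR1BP to H2BC18.

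The cells were HCT116, an established human colorectal cancer line, carrying either the control hairpin RNA named shControl or shCDK8, which targets CDK8. CDK8 is the kinase of the Mediator kinase module, a detachable part of the Mediator coactivator of transcription. Both lines spent 40 h without serum and were collected either then ("starved") or after a further 30 min in medium with 10% fetal bovine serum ("after serum"). The 4 groups were therefore shControl starved, shControl after serum, shCDK8 starved and shCDK8 after serum, with 2 arrays each. The labels name 1 hairpin per arm and do not say whether a line was a clone or a pool, so the effect of the knockdown cannot be told apart from other differences between the lines. Nor do they say that duplicates were separate cultures, so the p-values reflect only how far these samples spread, and that spread may be technical.

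Nucleosomes wrap DNA around pairs of H2A, H2B, H3 and H4, and H1 binds the linker. The clustered genes supply these proteins while DNA is copied. As a rule, though not in every case, they lack introns and their mRNAs end in a stem-loop bound by SLBP in place of a poly(A) tail. Such mRNAs accumulate in S phase and decay when replication stops. NPAT, a substrate of cyclin E and CDK2, activates transcription of the clustered genes. Whether the array labelling primed from poly(A) is not given in the sources used here, and it bears on how such mRNAs are sampled.

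The promoters below are shown because they belong to genes whose values the results turn on: the largest fall (H2BC14), the H2B gene with higher readings (H2BC12), the neighbours H2AC13 and H3C10, and 1 example each of H4 and H1. Each run is the 250 bases before the RefSeq start on GRCh38.p14, 5′ to 3′ on the gene's own strand, and all lie on chromosome 6. The windows are chr6:27814772-27815021 (plus strand) for H2BC14, chr6:27146859-27147108 (minus) for H2BC12, chr6:27807923-27808172 (plus) for H2AC13, chr6:27809801-27810050 (plus) for H3C10, chr6:26027284-26027533 (minus) for H4C2 and chr6:26156079-26156328 (plus) for H1-4. Capitals mark matches to TATAAA on the sense strand and, on either strand, to CCAAT, the octamer ATTTGCAT, GGTCCG (the core read by the H4 activator HINFP) and AAACACA (an H1 promoter element).
H2BC14: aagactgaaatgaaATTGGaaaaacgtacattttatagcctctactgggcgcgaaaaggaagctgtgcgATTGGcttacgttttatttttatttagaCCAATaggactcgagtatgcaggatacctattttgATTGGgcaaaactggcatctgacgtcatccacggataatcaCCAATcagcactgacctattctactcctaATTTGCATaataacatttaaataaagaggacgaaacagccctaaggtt
H2BC12: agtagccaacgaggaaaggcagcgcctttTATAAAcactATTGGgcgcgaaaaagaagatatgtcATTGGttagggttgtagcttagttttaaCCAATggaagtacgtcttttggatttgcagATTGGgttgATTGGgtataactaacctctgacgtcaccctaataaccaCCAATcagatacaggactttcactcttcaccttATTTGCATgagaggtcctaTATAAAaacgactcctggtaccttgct
H2AC13: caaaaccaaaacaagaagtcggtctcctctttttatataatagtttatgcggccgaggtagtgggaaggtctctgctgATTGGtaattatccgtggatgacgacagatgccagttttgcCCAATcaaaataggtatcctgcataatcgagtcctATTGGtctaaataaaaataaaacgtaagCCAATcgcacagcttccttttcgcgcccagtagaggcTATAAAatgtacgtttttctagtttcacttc
H3C10: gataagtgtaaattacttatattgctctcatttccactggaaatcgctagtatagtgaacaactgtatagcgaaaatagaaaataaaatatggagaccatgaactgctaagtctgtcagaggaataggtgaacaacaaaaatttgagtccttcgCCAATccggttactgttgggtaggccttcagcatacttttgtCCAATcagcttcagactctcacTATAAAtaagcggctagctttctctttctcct
H4C2: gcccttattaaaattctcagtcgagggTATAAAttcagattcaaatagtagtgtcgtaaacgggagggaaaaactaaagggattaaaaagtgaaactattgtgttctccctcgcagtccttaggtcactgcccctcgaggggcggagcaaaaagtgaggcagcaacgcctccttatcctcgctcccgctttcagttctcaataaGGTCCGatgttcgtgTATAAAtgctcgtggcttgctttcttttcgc
H1-4: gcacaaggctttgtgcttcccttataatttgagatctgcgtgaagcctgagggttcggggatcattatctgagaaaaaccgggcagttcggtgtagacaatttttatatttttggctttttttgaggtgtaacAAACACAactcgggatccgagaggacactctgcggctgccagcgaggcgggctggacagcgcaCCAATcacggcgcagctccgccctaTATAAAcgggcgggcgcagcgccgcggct

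RefSeq promoters were matched for 65 of the 74 genes. The windows of H3C4 and H2AC7 are the same bases and are counted in both H3 and H2A. In 11 pairs of an H2A with an H2B gene the windows overlap. A CCAAT or octamer match in the shared bases is counted in both families, so their shares are not separate. The families carried different letters, as the bar chart of motif shares shows. A CCAAT match was present in all 6 H1, 16 H2A, 18 H2B and 12 H3 promoters and in 3 of 13 H4 promoters, against 32.0% of 35116 promoters of the same length. The octamer was found in 11 of 16 H2A and 14 of 18 H2B promoters, against 1.63% of all promoters, and in no H1 or H4 promoter. GGTCCG stood in 12 of 13 H4 promoters, against 9.43% of all promoters; in H4C2 it began 46 bases before the start, with a TATAAA match at 31. AAACACA stood in all 6 H1 promoters, against 4.82% of all promoters, and in none of the core histone promoters. TATAAA was present in 38 of 65, against 6.80%. These matches describe letters within the window and are not shown to be sites.

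**Figure D1:**
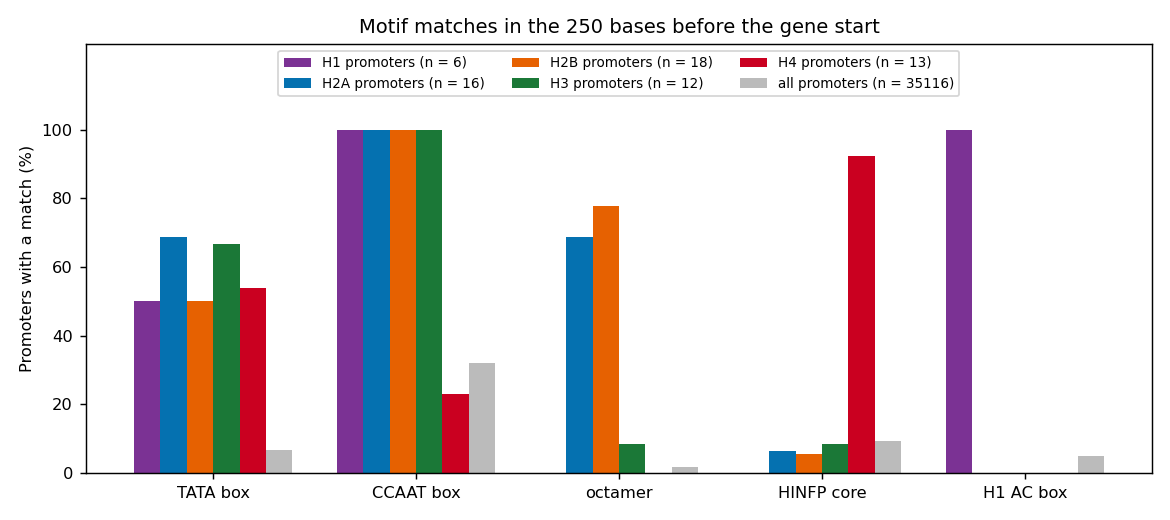
Share of promoters (%, y axis from 0) with at least 1 match to each motif in the 250 bases before the RefSeq start, for each histone family and for all promoters of the table (n in the legend). The octamer bars are tallest for H2B (77.8%) and H2A (68.8%), the HINFP core bar for H4 (92.3%), and the bar of the H1 element for H1 (100%). Octamers in overlapping H2A and H2B windows count in both families.

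Array medians lay between 6.44 and 6.51 on the log2 scale, and duplicates correlated across the 33297 probe sets with r from 0.996 to 0.997. The probe set of the targeted gene, annotated to CDK8 together with ADRA1B, read 9.23 and 9.20 in shControl starved, 9.22 and 9.19 in shControl after serum, 7.09 and 6.99 in shCDK8 starved and 7.04 and 7.06 in shCDK8 after serum. It was 4.53-fold lower in starved and 4.45-fold lower in serum-treated shCDK8 cells. The 9 colon epithelium markers had mean levels of 5.61 (VIL1, below the array medians) to 12.49 (KRT8). The 7 fibroblast and 7 blood and endothelium markers measured had mean levels of 3.33 to 8.18 and 3.61 to 6.07, and none was called in a line comparison.

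The first comparison asked how histone transcripts differed between the CDK8-depleted and control lines. Histone mRNAs were lower in shCDK8 cells: averaged over both times, 29 of the 78 probe sets (27 of 74 distinct profiles) fell and none rose, by limma with Benjamini-Hochberg adjusted p below 0.05 over all 33297 probe sets. Across the array 5.64% of probe sets were lower and 6.08% higher in that contrast. The median histone change was -0.19, beside -0.02 over all probe sets, and 74 of the 78 changes were below 0, beside 18462 of 33297. Every shCDK8 array read below every shControl array on 35 histone probe sets, where 9.12% of the array did so. In bulk RNA, fewer cells making histones and less histone mRNA per cell cannot be told apart.

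Each time point gave the same direction with fewer calls. In starved cells 13 probe sets (12 distinct) were lower and none higher, against 2.33% lower and 2.86% higher across the array, and the median histone change was -0.20. After serum 10 (9 distinct) were lower and none higher, against 2.44% and 3.14%, with a median of -0.18. Fitted on the 21214 annotated probe sets alone, the lower counts were 28 in starved cells (5.71% of those probe sets), 24 after serum (6.00%) and 43 averaged (10.6%), the last with 1 histone probe set higher, H2BC12. Starved and serum-treated arrays are separate samples, and over the 74 profiles the line changes at the 2 times correlated with r = 0.77, a description across genes that share arrays and are not independent. The scatter of the line change at each time shows 67 of the 78 below 0 at both times and 2 above 0 at both, H2BC12 and H1-5.

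The number of lower calls fell with any single array left out. Each such fit has fewer arrays by construction, and how far that accounts for the losses was not tested. In starved cells the number lower was 2 without shControl replicate 1, where H2BC12 was called higher, 3 without shCDK8 replicate 1 and 6 without replicate 2 of either line. After serum it was 3 without shControl replicate 1, 2 without shControl replicate 2, 4 without shCDK8 replicate 1 and 2 without shCDK8 replicate 2. The averaged count was 19 without either shCDK8 starved array, 19 lower and H2BC12 higher without shControl starved replicate 1, 15 without shControl serum replicate 2 and 17 without shCDK8 serum replicate 2. Of the 29 averaged calls, 14 held whichever of the 8 arrays was left out.

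**Figure D2:**
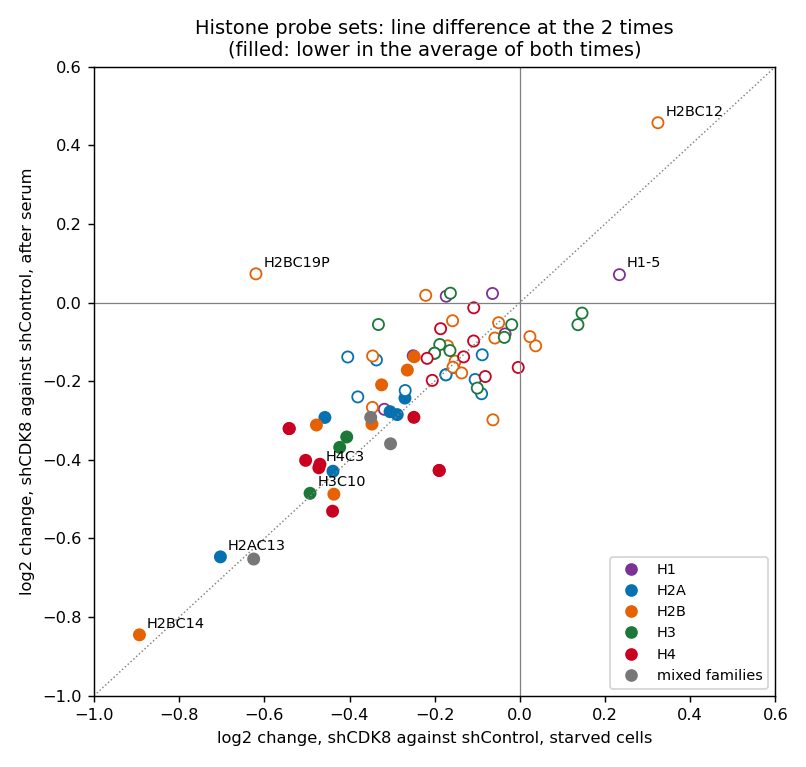
Line change (log2, shCDK8 against shControl) of each of the 78 histone probe sets in starved cells (x) and after serum (y), coloured by family; filled points were lower in the average of both times and the dotted line marks equal change. Most points lie below 0 on both axes (67 of 78), H2BC14 lies farthest down at -0.89 and -0.85, and H2BC12 and H1-5 lie above 0 on both axes.

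H2B, which pairs with H2A to form a dimer of the nucleosome core, held both extremes of the change. H2BC14 read 11.17 and 11.09 in shControl starved, 11.01 and 11.04 in shControl after serum, 10.16 and 10.31 in shCDK8 starved and 10.23 and 10.13 in shCDK8 after serum. All 4 shCDK8 arrays thus lay below all 4 shControl arrays, and the gap was wide beside the spread within any pair of duplicates. The averaged change was -0.87 ± 0.05 (SE, limma adjusted p = 1.58e-04), a 1.83-fold fall, with -0.89 in starved cells (adjusted p = 0.00142) and -0.85 after serum (0.00166). H2BC17 read 6.46 and 6.36, then 6.22 and 6.41 in shControl cells and 5.93 and 6.02, then 5.77 and 5.88 in shCDK8 cells, starved pair first. These arrays did not overlap between the lines, and H2BC17 fell by 0.46 on average (limma adjusted p = 0.00443).

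H2BC12 went the other way without passing the test. It read 8.66 and 8.15 in shControl starved, 8.46 and 8.34 in shControl after serum, 8.74 and 8.71 in shCDK8 starved and 8.81 and 8.91 in shCDK8 after serum. Every shCDK8 array lay above every shControl array, but the starved control duplicates lay far apart. Its averaged change was 0.39 ± 0.11 (limma adjusted p = 0.0686). Without shControl starved replicate 1, which left 1 array in that group, the change became 0.52. With any other single array left out H2BC12 was not called on average. It passed among annotated probe sets alone (limma adjusted p = 0.0194). The H2BC12 promoter printed above carries the octamer 46 bases before the start, as H2BC14 does at 48, and both carry several CCAAT matches; a TATAAA match at 27 is in the H2BC12 window and none is in that of H2BC14.

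Of the 22 H2B probe sets 7 were lower on average, beside 5.64% of the array, with a family median of -0.17. The other single-gene falls were H2BC7 at -0.39, H2BC13 at -0.33 and H2BC21 at -0.27. A probe set shared by H2BC12, H2BC12L, H2BC17 and H2BC5 was lower by -0.22 at the edge of the threshold (limma adjusted p = 0.0499). The single-gene H2BC12 set changed by 0.39 without being called, and that of H2BC17 was lower. The shared value thus cannot be assigned to 1 gene. A further lower probe set was shared by H2BC18, H2BP1 and H2BC21 (-0.19). The set shared by H2BC19P, H2BC20P and H2BC21 did not pass (-0.15, adjusted p = 0.0919), and the pseudogene H2BC19P had the most uneven values of the family, with a change of -0.62 in starved cells and 0.07 after serum (limma adjusted p = 0.251 and 0.928). The 12 remaining H2B sets were not called, from H2BC4 at -0.31 to H2BC3 at -0.03.

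H2A, the partner of H2B in the dimer, had 6 of 16 probe sets lower, beside 5.64% of the array, and a median of -0.25. H2AC13 read 9.54 and 9.38 in shControl starved, 9.33 and 9.46 in shControl after serum, 8.90 and 8.61 in shCDK8 starved and 8.85 and 8.64 in shCDK8 after serum. The lines did not overlap, although the shCDK8 duplicates lay farther apart than the shControl ones. Its averaged change was -0.67 ± 0.09 (limma adjusted p = 0.00362), and it was called at both times. H2AC21, from the smaller chromosome 1 cluster, read 11.38 and 11.38, then 11.29 and 11.34 in shControl cells and 10.86 and 10.98, then 11.05 and 10.996 in shCDK8 cells. Its change was -0.46 in starved cells (limma adjusted p = 0.0123) and -0.29 after serum (0.0586).

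The other H2A falls were H2AC4 (-0.43), H2AC11 (-0.29), H2AC15 (-0.29) and H2AC6 (-0.26). H2AC15 was called at both times with close duplicates, at 8.78 and 8.74, then 8.67 and 8.70 in shControl cells against 8.47 and 8.47, then 8.40 and 8.40 in shCDK8 cells. H2AC20 and the twin probe sets shared by H2AC18, H2AC19, H2AC20 and H2AC21, the H2A sets with the highest mean levels, were not called (-0.16, adjusted p = 0.123, and -0.18, 0.0890). The 7 remaining H2A sets were not called, from H2AC14 at -0.31 to H2AC16 at -0.11. The H2AC21 set and the set it shares with its near-identical neighbours thus gave different results, and the shared value belongs to the group.

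**Figure D3:**
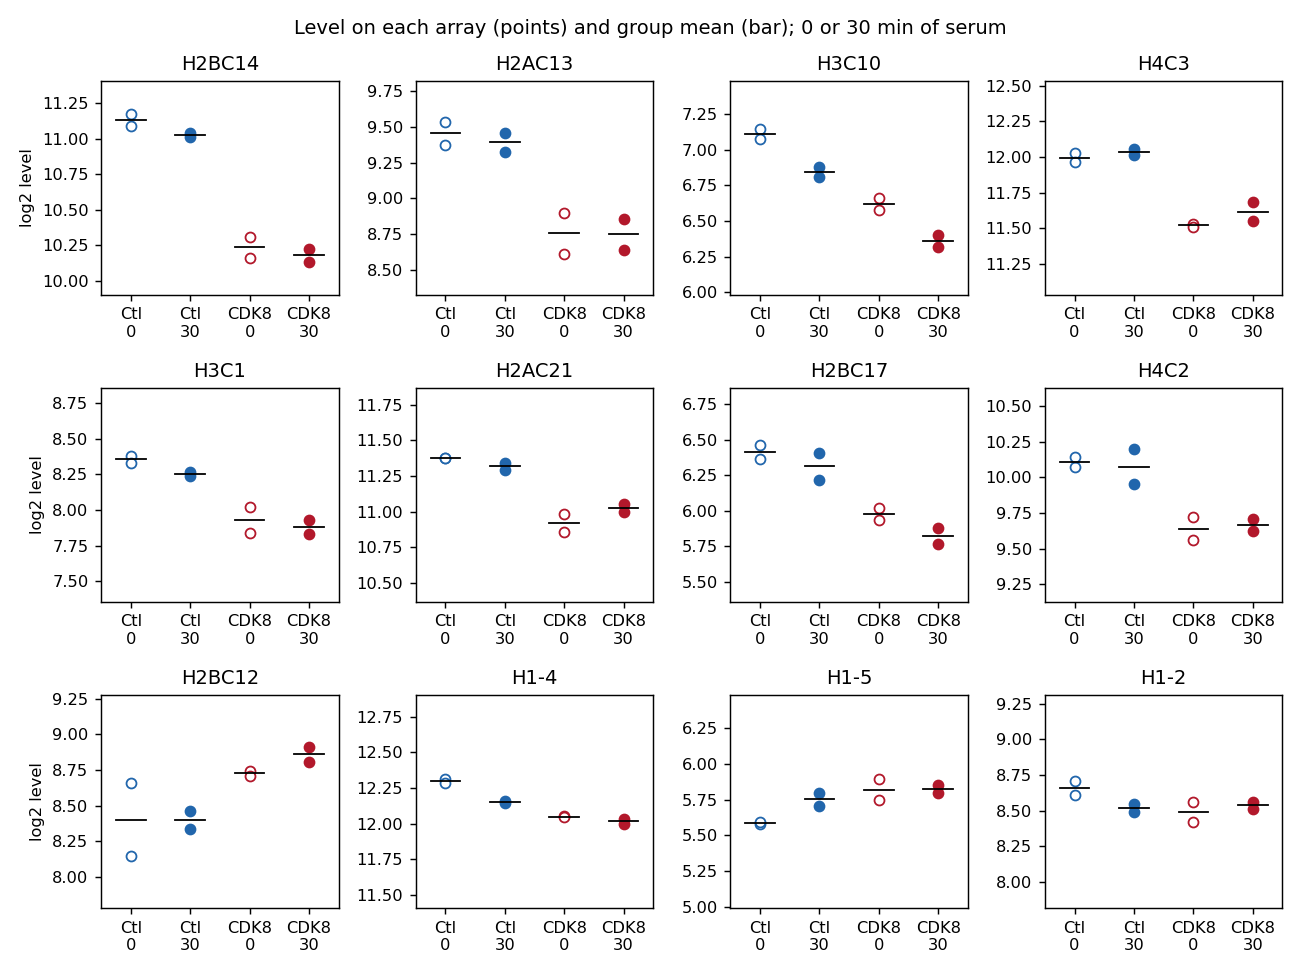
Log2 level of 12 histone probe sets on each of the 8 arrays (points; open, starved; filled, 30 min serum; blue, shControl; red, shCDK8), with group means as bars and the same 1.5-unit height in every panel. H2BC14, H2AC13, H3C10 and H4C3 separate the lines with no overlap. The H2BC12 points of shCDK8 cells lie above those of shControl cells, though its change was not called, and H1-2 overlaps between the lines.

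H3 and H4 form the tetramer on which a nucleosome is built. H3C10 read 7.15 and 7.07 in shControl starved, 6.81 and 6.88 in shControl after serum, 6.66 and 6.58 in shCDK8 starved and 6.40 and 6.32 in shCDK8 after serum. The 4 groups formed a descending series without overlap. The line change was -0.49 in starved cells and -0.49 after serum (averaged -0.49 ± 0.05, limma adjusted p = 0.00124). A probe set shared by H3C10 and its neighbour H2AC13 moved by -0.64 (adjusted p = 4.70e-04) and, like H2BC14, kept its call at both times whichever array was left out. The other sets spanning 2 families, H3C4 with H2AC7 (-0.32) and H2BC15 with H2AC15 (-0.33), were lower on average as well.

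H3 had 3 of 14 probe sets lower, beside 5.64% of the array, with a median of -0.15. Besides H3C10 these were H3C1, called at both times (8.38 and 8.33, then 8.24 and 8.26 in shControl; 7.84 and 8.02, then 7.93 and 7.83 in shCDK8; averaged -0.40 ± 0.06), and H3C2 (-0.37). The 4 probe sets shared by the near-identical H3C13, H3C14 and H3C15, which include the H3 sets with the highest mean levels, changed by -0.14 to -0.16 and were not called (limma adjusted p from 0.0810 to 0.141). H3C7 (-0.19), H3-4 (-0.16), H3C12 (-0.07), H3C11 (-0.06) and H3C3 (-0.04) did not pass either, and H3C8 (0.06) and a set shared by H3C11 and H3C6 (0.04) lay just above 0.

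H4 had 9 of 17 probe sets lower, beside 5.64% of the array, with a median of -0.27. Of these 9, 2 repeated the values of another exactly. H4C3, the H4 set with the highest mean level, read 12.03 and 11.96, then 12.02 and 12.05 in shControl cells and 11.53 and 11.51, then 11.68 and 11.55 in shCDK8 cells. The lines did not overlap, and the change was -0.47 in starved cells (limma adjusted p = 0.0118), -0.42 after serum (0.0180) and -0.45 ± 0.05 on average. H4C1 (-0.49), H4C4 (-0.45) and H4C2 (-0.44) fell by similar amounts on average, although H4C4 and H4C1 were called at neither single time. The twin sets shared by H4C14 and H4C15 changed by -0.54 in starved cells and -0.32 after serum, while the twin sets annotated to H4C14 or H4C15 singly changed by -0.19 and -0.43. Only the former passed in starved cells (limma adjusted p = 0.0153) and only the latter after serum (0.0376), so the time at which these genes passed depended on the probes. Of 2 sets shared by H4C11 and H4C12, 1 was lower (-0.27) and the other not (-0.20, limma adjusted p = 0.0554). H4C5 to H4C9, H4C13 and H4C16 were not called, with changes from -0.18 to -0.06.

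Linker histone H1 compacts the fibre between nucleosomes. H1-4 read 12.31 and 12.28 in shControl starved, 12.15 and 12.16 in shControl after serum, 12.05 and 12.04 in shCDK8 starved and 12.03 and 11.999 in shCDK8 after serum. The lines did not overlap, and the averaged change was small, -0.19 ± 0.04 (limma adjusted p = 0.0243); the call was lost under each left-out array. H1-2 read 8.71 and 8.61, then 8.49 and 8.55 in shControl and 8.42 and 8.56, then 8.56 and 8.51 in shCDK8, which overlap after serum (averaged -0.08, adjusted p = 0.455). H1-6, a testis H1, changed by -0.30 with wide duplicates, H1-1 and H1-3 by -0.02 and -0.06, and H1-5 by 0.15 (limma adjusted p = 0.128). In H1, 1 of 6 probe sets was lower, beside 5.64% of the array. With 6 probe sets, 1 call does not set H1 apart from the array.

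The falls were found along the clusters, as the plot of change in gene order shows. The chromosome 6 cluster held 21 of the averaged calls among 55 HIST1 probe sets. The chromosome 1 HIST2 genes held 7 of 18, and 5.64% of the array was lower. None of the 3 HIST3 sets passed, with changes of -0.16 (H3-4), -0.25 (H2AC25) and -0.18 (H2BC26). These lie near the histone median of -0.19, and 3 sets are too few to set HIST3 apart. H4C16, alone on chromosome 12, changed by -0.06. In RefSeq order 5 genes in a row, H3C1, H4C1, H4C2, H3C2 and H2AC4, were lower, at -0.37 to -0.49. Another row of 5, H2BC13, H2AC13, H3C10, H2AC14 and H2BC14, changed by -0.33, -0.67, -0.49, -0.31 and -0.87, of which H2AC14 did not pass (limma adjusted p = 0.0519). These rows were noticed after the values were seen. Probe sets above the median level of the array (6.47) took 26 of the 29 falls, 55.3% of 47, beside 9.68% of the 31 dimmer ones; over the whole array the lower shares were 9.79% and 1.49%, so dimmer probe sets had fewer calls on the whole array as well.

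**Figure D4:**
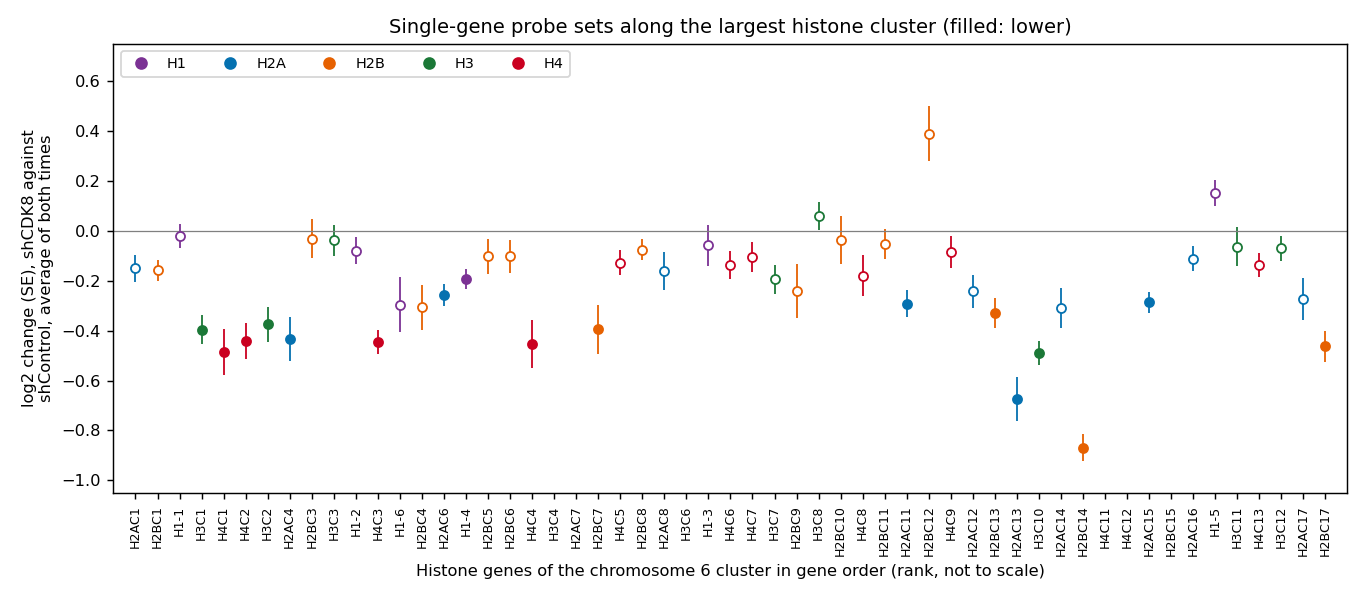
Averaged line change (log2, y axis, with SE bars) of each histone gene of chromosome 6 that had a single-gene probe set, in gene order and not to scale; filled points were lower by limma. Genes without a point had no single-gene probe set. H3C1 to H2AC4 and H2BC13 to H2BC14 stand as runs below 0, and H2BC12, H1-5 and H3C8 stand above it.

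Many H2A and H2B genes lie back to back and share the bases between their starts. Among the promoter windows, 12 opposite-strand pairs overlapped, 11 of them an H2A with an H2B gene. The windows of H3C4 and H2AC7 are the same bases, so the pairs of H2BC7 with H3C4 and with H2AC7 are the same overlap. In 9 pairs both genes had a single-gene probe set: both were lower in 1 pair, 1 of the genes in 5 and neither in 3. The pair that both fell was H2AC13 (-0.67) with H2BC13 (-0.33), which share 243 bases. H2BC14 and H2AC14 share 244 bases of the window printed for H2BC14, yet their changes were -0.87 ± 0.05 and -0.31 ± 0.08; the difference between them was not tested, and H2AC14 was dim (mean level 4.80).

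Motif matches were counted in lower and other genes as well. The octamer was present in 8 of 19 genes with a lower single-gene probe set and in 15 of 34 not called. These octamer counts are not separate. In all 5 back-to-back pairs with a single lower gene, both windows held the octamer in their shared bases. Each such octamer was counted on both sides, so the similar shares cannot show whether the octamer went with the falls. Within H2B the octamer was in 4 of 5 lower and 9 of 11 other promoters. Within H4, GGTCCG was in 4 of 4 lower and 6 of 7 other promoters. The lower genes of these counts include both H4C14 and H4C15, whose single-gene probe sets held identical values. TATAAA was in 13 of 19 and 18 of 34.

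The second comparison asked what 30 min of serum did to these transcripts. In neither line was a histone probe set called (limma, Benjamini-Hochberg adjusted): 0 of 78 in shControl, where 0.141% of the array was, and 0 of 78 in shCDK8, where 0.0901% was. At an unadjusted p below 0.05 the counts were 11 (14.1%) in shControl and 10 (12.8%) in shCDK8, beside 7.68% and 7.63% of all probe sets. The smallest adjusted p were 0.420 for H3C10 in shControl and 0.547 for H3C10 and H2BC26 in shCDK8. The median change was -0.09 in shControl and -0.06 in shCDK8, beside -0.01 and -0.00 over all probe sets, and 62 and 51 of the 78 changes were below 0.

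H3C10 changed by -0.27 ± 0.07 in shControl and -0.26 ± 0.07 in shCDK8, and its serum arrays lay below its starved arrays in each line. H2AC4 read 9.74 and 9.77 before and 9.27 and 9.45 after serum in shControl, and 9.13 and 9.50 before and 8.94 and 8.93 after serum in shCDK8. Its changes of -0.39 and -0.38 did not pass (limma adjusted p = 0.533 and 0.601). H2BC14 changed by -0.11 and -0.06 and H4C3 by 0.04 and 0.09, while H4C4 had changes of 0.20 and 0.30 (adjusted p = 0.789 and 0.662). By family the median ran from -0.13 for H3 to -0.01 for H4 in shControl and from -0.08 for H3 and H2A to 0.03 for H1 in shCDK8, aside from the 3 mixed sets. In shControl starved cells replicate 1 exceeded replicate 2 by a median of 0.07 over the histone probe sets, close to the size of the shControl serum median; in the other groups that difference was -0.03 to 0.04.

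The difference between the lines' serum responses was called for 0 histone probe sets and 0% of the array (limma). The median difference was 0.04, the unadjusted count was 2 of 78 (2.56%) beside 3.67% of all probe sets, and the smallest adjusted p was 1.00.

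**Figure D5:**
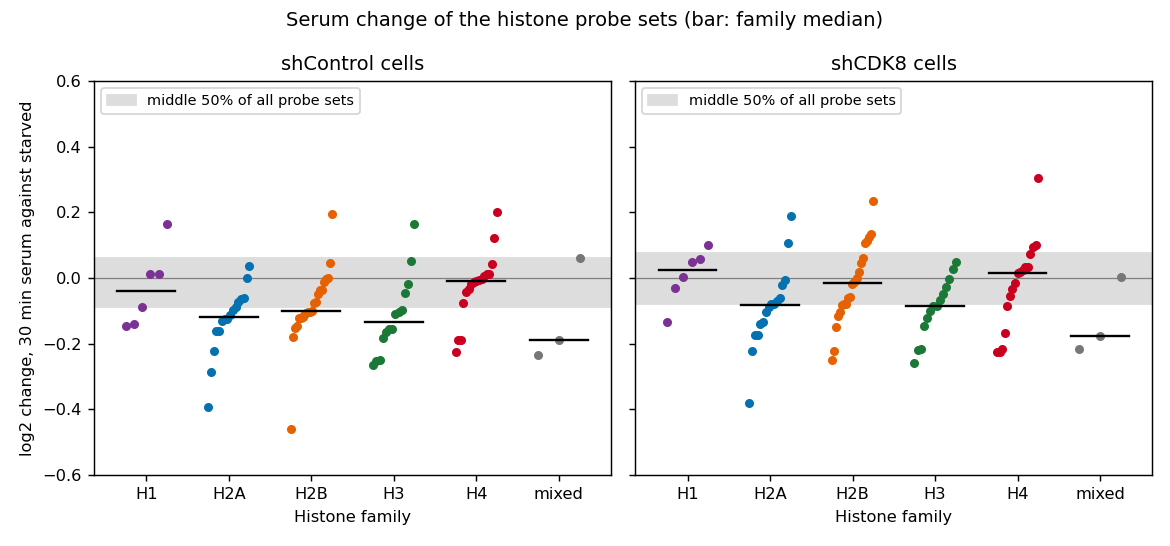
Serum change (log2, 30 min against starved) of every histone probe set by family in shControl (left) and shCDK8 (right) cells; bars are family medians and the grey band holds the middle 50% of all probe sets. Points scatter around and below 0 with no called change, and H4 sits nearest 0 in shControl at -0.01.

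The summed histone signal, over distinct profiles and taken to log2 again, put the 4 groups side by side. It was 15.57 and 15.49 in shControl starved, 15.41 and 15.46 in shControl after serum, 15.21 and 15.24 in shCDK8 starved and 15.20 and 15.15 in shCDK8 after serum. All 4 shCDK8 sums lay below all 4 shControl sums.

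Genes that act with the clustered histones were then read from lists. Across the array 5.64% of probe sets were lower and 6.08% higher on average, and 9.79% of those above the median level were lower. Of the factors that make and process histone mRNA, 20 of 22 were measured and few moved. SLBP, the stem-loop binding protein, changed by -0.22 and -0.29 at the 2 times and was lower on average (-0.25, limma adjusted p = 0.0417). ZNF473, a zinc finger protein of the U7 processing machinery, was lower in starved cells (-0.49, adjusted p = 0.0241) and on average (-0.42), and CCNE1, cyclin E1, was higher on average (0.23, adjusted p = 0.0363). NPAT changed by -0.03 and 0.05 and was not called, nor was CASP8AP2, a component of histone locus bodies (averaged -0.22, limma adjusted p = 0.0683). The list median was -0.04.

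Of 16 histone chaperones, which carry histones to and from DNA, 6 were lower and 2 higher on average (median -0.10). The array shares were 5.64% lower and 6.08% higher. The falls included ASF1B (-0.49), HJURP (-0.40) and NASP (-0.32), which carries H1 and H3-H4; ATRX (0.46) and ASF1A (0.42), the paralogue of ASF1B, were higher. Of 9 measured histones encoded outside these clusters or expressed outside S phase, H2AX was lower (-0.48) and MACROH2A2 higher (0.39), and the list median was -0.01. H3-3B (0.07), H2AZ1 (-0.14) and H2AZ2 (-0.18) were not called.

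S phase genes were lower too. Of 24 measured genes of S phase and DNA replication 19 were lower and none higher on average, with 15 lower in starved cells and 12 after serum. Across the array 5.64%, 2.33% and 2.44% were lower in those contrasts. Among probe sets above the median level 9.79% were lower on average. The averaged median of the 24 genes was -0.35 and all 24 changes were below 0. E2F8 (-0.62), the thymidine kinase TK1 (-0.61), the ribonucleotide reductase subunit RRM2 (-0.52) and CCNA2, cyclin A2 (-0.52), changed most. The log2 of their summed signal was 14.54 to 14.56 in shControl starved, 14.54 to 14.55 in shControl after serum, 14.15 to 14.20 in shCDK8 starved and 14.22 to 14.23 in shCDK8 after serum. Their part in the histone result was not tested. Among 9 colon epithelium markers 3 were higher on average (KRT18 at 0.56, KRT8 at 0.43 and CDH1 at 0.23) and 1 lower (KRT19 at -0.32), beside 6.08% and 5.64% of the array. Their summed log2 signals were 14.03 to 14.06 in shControl and 14.25 to 14.32 in shCDK8 arrays, and their part was likewise not tested. None of these lists had a member called in the serum comparisons of shControl and shCDK8 or in the difference of responses. Across the array 0.141%, 0.0901% and 0% of probe sets were called there.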

How the data were processed

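Total RNA from 8 samples (4 groups of 2, taken from the labels) was measured on 8 arrays. The deposited values were log2 probe set levels made by the authors with RMA (background correction, quantile normalization and summary of probes), per the submitters' processing notes. The RMA version, the array's build and whether RMA was run on the 8 arrays jointly were not given in the sources used here. Per the labels' protocols, standard Affymetrix steps made the biotin-labelled cRNA. Depth does not apply to arrays; their number limits the precision.

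Genes were named from the array annotation, which listed 21214 of 33297 probe sets (19460 with 1 symbol, 1754 with several). A model of 4 group means was fitted to all probe sets with limma 3.58.1 in R 4.3.3 (4 residual and 2.92 prior degrees of freedom), with 6 contrasts. Two-sided P-values received the Benjamini-Hochberg adjustment over every probe set of a contrast, and "lower", "higher", "fell" and "called" mean adjusted p below 0.05. Errors are model SEs. Histone probe sets, lists and tests were chosen with earlier results of these data known. Names were fixed by a rule: up to 10 falls and rises per contrast among called histone probe sets with arrays that did not overlap, the 2 with the highest mean level per family, up to 4 called genes per other list and contrast, and SLBP, NPAT, CASP8AP2 and CDK8. Other histone genes were named after their values were seen, to account for the families. On simulated data for the starved line contrast (33297 probe sets), 2% of shifts of -0.25, 40% of -0.5, 82% of -1 and 92% of -2 were recovered, with 11 of 119 calls false. In the simulation 50 probe sets were shifted at each size and no other difference between groups was put in. Promoters and gene order came from RefSeq (GRCh38.p14). Alternatives were a variance trend, fits of the compared arrays alone, a replicate block, a filter on dim probe sets, cyclic loess, median centring, annotated probe sets alone, a 1.5-fold minimum and each array left out; identical probe sets counted once and a crossed block were added after seeing the data.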

Additional observations from a re-analysis of the deposited data

How the results depend on the processing

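No change reversed its direction among called values. The starved count of 13 called histone probe sets, all lower, became 2 with the compared arrays alone, 8 with each array centred on its median, 28 among annotated probe sets alone and 0 with a 1.5-fold minimum, and ranged from 3 to 10 with 1 array left out (2 of the 3 lower, and H2BC12 higher, without shControl starved replicate 1). The after-serum count of 10 became 17 with an intensity trend, 2 with the compared arrays alone, 24 among annotated probe sets alone and 0 with the 1.5-fold minimum, and ranged from 2 to 10, the 10 being 9 lower and H2BC12 higher without either shControl starved array. The averaged count of 29 became 44 (43 lower, and H2BC12 higher) among annotated probe sets alone and 0 with the 1.5-fold minimum, and ranged from 15 to 24. The cause was not tested, beyond fewer arrays or probe sets by construction. Serum and response-difference counts stayed 0 in every alternative run. The median line change ranged from -0.23 to -0.18 in starved cells, -0.20 to -0.17 after serum and -0.20 to -0.17 averaged. H2BC14 lost its call only under the 1.5-fold minimum, at each time and averaged. Replicate numbers are not said to pair samples, and differences between duplicates correlated between groups from -0.13 to 0.12 over all probe sets and from 0.09 to 0.37 over the histone probe sets. With a replicate block the counts were 9 in starved cells, 7 after serum and 27 averaged, and with the crossed replicate block, added after seeing the data, the starved count was 8. A shift of -0.25 was recovered in 2% of simulated cases at 2 arrays a group. That simulation called 119 probe sets, where the measured starved line contrast called 776 lower and 952 higher. Fewer calls make the adjusted threshold stricter, so the 2% does not give how often changes of that size were missed here.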
